A study of Mus musculus with 8 samples.

Results

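The distal V segments of the T-cell receptor (TCR) β-chain, TRBV1, TRBV2, TRBV3, TRBV4 and TRBV5, were described in the endogenous (en-T) CD8+ compartment of 8 mice that bore melanomas. Their clonotypes were those whose deposited V call was 1 of these 5 names. They made up 12045 of the 60131 β-chain clonotypes listed (20.03%) and 15918 of the 80000 reads (19.9%), and 5 of the 24 V segments named. A clonotype is a distinct CDR3 nucleotide sequence with its V and J calls, and its value is its number of reads. The CDR3 is the loop at the V, D and J junction. Female C57BL/6 mice aged 6 to 8 weeks were given 200000 B16F10 melanoma cells intradermally. On day 3 every mouse was lymphodepleted with cyclophosphamide (CTX) at 300 mg/kg. They were then given 2000000 Thy1.1 Pmel-1 T cells, which carry a transgenic TCR for the melanoma antigen gp100, on day 5, followed by 10000 IU IL-2 daily for 3 days. The CTXpre group (3 mice) had no further treatment, and the CTXpre/CD4post group (5 mice) was also given 200 μg of the anti-CD4 antibody GK1.5 on days 10, 17 and 24. On day 25, Thy1.1-negative CD8-positive cells, the host's own, were sorted from inguinal lymph nodes and spleen, and 1 library was made per mouse. The files list TCR sequences only, so the sort could not be checked against other markers of CD8+ T cells. Each library held 10000 reads after down-sampling by the authors, and from 5671 to 8529 β-chain clonotypes. No molecular identifiers are named, so several reads can stem from 1 RNA molecule and the intervals given cover counting error only. In RNA from a cell population, more cells with a receptor and more receptor RNA per cell cannot be told apart. The library of CTXpre/CD4post mouse 2 stood apart in 1 respect: it had 27 distal nucleotide clonotypes in common with that of mouse 1, against 2 to 15 in the other 27 pairs of mice. Counts of expanded clonotypes found in another mouse, and of clonotypes in 2 or more and 4 or more mice, are given with and without these matches. So are the differences in sharing from all other V segments and between groups. The remaining values on sharing include these matches.

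A TCR β-chain gene is put together in the thymus by joining 1 V, 1 D and 1 J segment. The recombinase cuts at a signal next to each segment, made of a heptamer and a nonamer with a spacer between them, and nucleotides are then trimmed from the ends or added between them. TRBV1 to TRBV5 stand at the 5' end of the locus, farthest from the D and J segments, and contraction of the locus is known to bring such distant segments together. The V segment sets the first and second antigen-contact loops of the chain and the start of the third, the CDR3. TRBV1 to TRBV5 are the segments that older serological names call Vβ2, Vβ4, Vβ16, Vβ10 and Vβ1.

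In the RefSeq annotation of GRCm38, the build named in the labels as mm10, the segments lie on the plus strand of chromosome 6. Each has 2 exons, the first for the signal peptide and the second for the variable domain. Trbv1 spans 40891296 to 40891885 and stands alone, 155670 bases before Trbv2. Trbv2 (41047556 to 41047995) and Trbv3 (41048394 to 41048824) are separated by 398 bases, and Trbv4 (41059443 to 41059886) and Trbv5 (41062359 to 41062803) follow. The ends of the V exons lie between 470398 and 641316 bases before Trbd1, the first D segment. The end of each V exon from the conserved cysteine codon onward, with the recombination signal after it, is shown because the CDR3 starts there. Capitals mark the heptamer and the nonamer.
TRBV1, chr6:40891869-40891924: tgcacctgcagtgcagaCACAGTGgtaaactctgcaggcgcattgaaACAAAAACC
TRBV2, chr6:41047979-41048034: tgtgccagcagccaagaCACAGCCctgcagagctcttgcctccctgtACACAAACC
TRBV3, chr6:41048808-41048863: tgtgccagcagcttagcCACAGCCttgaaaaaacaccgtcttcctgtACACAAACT
TRBV4, chr6:41059870-41059925: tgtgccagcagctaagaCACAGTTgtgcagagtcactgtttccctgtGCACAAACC
TRBV5, chr6:41062787-41062842: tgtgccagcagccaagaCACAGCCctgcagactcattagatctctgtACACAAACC

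All 5 segments contribute 17 germline bases to the CDR3, against a median of 16 (14 to 17) in the 18 other V segments of the files whose end could be matched to RefSeq. The last 17 bases of TRBV2 and TRBV5 are identical, so these calls rest on bases before the CDR3. TRBV4 differs from both in that its bases 13 to 15 form a stop codon in the reading frame. The heptamer was read on the coding strand directly after the V exon. The consensus heptamer CACAGTG follows TRBV1 and 7 of the 18 other V segments (38.9%). TRBV2, TRBV3 and TRBV5 have CACAGCC, and TRBV4 has CACAGTT. The nonamer after the spacer of 23 bases is the consensus ACAAAAACC in TRBV1, and shares 8 of the 9 bases with it in TRBV2 and TRBV5 and 7 in TRBV3 and TRBV4. These matches describe the letters and say nothing of use.

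The number of germline V bases still present at the start of each CDR3 was counted up to the first mismatch, which also counts a base restored by chance. TRBV2 kept the most and TRBV4 the fewest of the 5 in every mouse. TRBV2 clonotypes kept a mean of 15.7 ± 0.258 bases (SD, n = 8 mice) and TRBV4 clonotypes 12.3 ± 0.0953, with TRBV5 (14.9 ± 0.162), TRBV1 (14.9 ± 0.122) and TRBV3 (13.503 ± 0.110) between them. The mouse ranges of TRBV2 (15.22 to 15.95), TRBV3 (13.4 to 13.7) and TRBV4 (12.2 to 12.4) did not overlap each other or those of the rest, while TRBV1 (14.7 to 15.1) and TRBV5 (14.64 to 15.17) overlapped. Of the TRBV2 clonotypes of a mouse, 57.8% ± 4.74 (SD, n = 8) kept all 17 bases, against 35.9% ± 2.77 of TRBV5, whose 17 bases are the same. The ranges over mice, 50.5% to 64.3% and 30.7% to 40.5%, did not overlap. In TRBV3 the full end was kept in 5.04% ± 1.06. None of the 2841 TRBV4 clonotypes kept 15 or more of the 17 bases, and 356 of them (12.5%) kept 14. The listed CDR3s of all files hold no stop codon, and a TRBV4 end that keeps base 15 would carry 1. These counts were not tested between segments or groups.

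**Figure D1:**
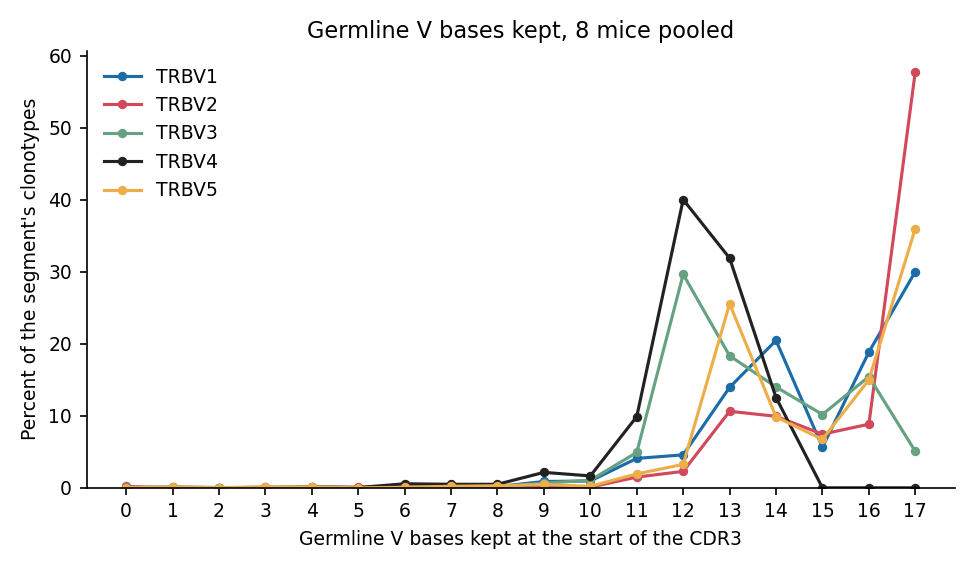
Percent of each segment's clonotypes (vertical axis, 8 mice pooled) by the number of germline V bases kept at the start of the CDR3 (horizontal axis, 0 to 17); lines are the 5 segments. TRBV4 stops at 14 bases with a peak at 12, TRBV3 also peaks at 12, and TRBV2 has 57.8% of its clonotypes at 17.

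Distal CDR3s were longer than those of the other V segments in each of the 8 mice. Mean length, each clonotype counted once, was 14.2 ± 0.0623 residues (SD, n = 8) against 13.8 ± 0.0325, a difference of 0.463 ± 0.0697 (from 0.392 to 0.567). The exact two-sided sign-flip test over the 8 mice gave p = 0.00781, the smallest it can give, and p = 0.0195 adjusted over the 5 within-mouse comparisons. Lengths of 15 residues made up 26.5% ± 1.39 of distal and 20.5% ± 0.430 of other clonotypes, and lengths of 12 residues 7.62% ± 0.799 and 12.2% ± 0.365. The mean number of bases assigned to no segment was 2.96 ± 0.0600 in distal and 3.00 ± 0.0480 in other clonotypes. That difference of −0.04 (lower in 7 of 8 mice, exact sign-flip p = 0.0391) did not pass after adjustment (p = 0.0651). The V ends given in the files can run past the 17 germline bases. Bases counted there as V are not among the unassigned ones, here and below. Against the 7 other V segments that also contribute 17 germline bases, a comparison added after the data were seen, distal CDR3s were longer by 0.350 ± 0.0696 residues (8 of 8 mice, exact sign-flip p = 0.00781).

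The members differed among themselves. TRBV2 had the longest CDR3s, 14.7 ± 0.141 residues (SD, n = 8), or 0.942 ± 0.154 more than the other V segments. Its values were 14.55, 14.65 and 14.60 in the CTXpre mice and 14.94, 14.81, 14.66, 14.90 and 14.71 in the CTXpre/CD4post mice. All 5 CTXpre/CD4post values lay above the 3 CTXpre values, a separation noticed after the values were seen and given without a test. In each of the remaining members the groups overlapped. How many of the other V segments separate in this way was not counted. The TRBV2 means rest on 99 to 142 clonotypes per mouse. TRBV5 followed with 14.5 ± 0.0674, TRBV1 with 14.3 ± 0.0646 and TRBV3 with 14.1 ± 0.0908 residues. TRBV4, which kept the fewest germline bases, had 13.93 ± 0.0754, or 0.142 ± 0.0834 more than the other V segments, and was longer in 7 of 8 mice. Each of the 5 differences from the other V segments passed the exact sign-flip test (p = 0.00781 for 4 segments and p = 0.0156 for TRBV4; p = 0.00977 and p = 0.0156 adjusted over the 5 comparisons). The 7 other V segments with 17 germline bases had 13.90 ± 0.0390 residues, near the value of TRBV4. The members were not tested singly against those 7. Over the distal clonotypes together, length did not differ between groups beyond the spread of mice: it was 14.2 ± 0.0267 in CTXpre (n = 3) and 14.3 ± 0.0699 in CTXpre/CD4post mice (n = 5; exact two-sided Mann–Whitney p = 0.393).

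**Figure D2:**
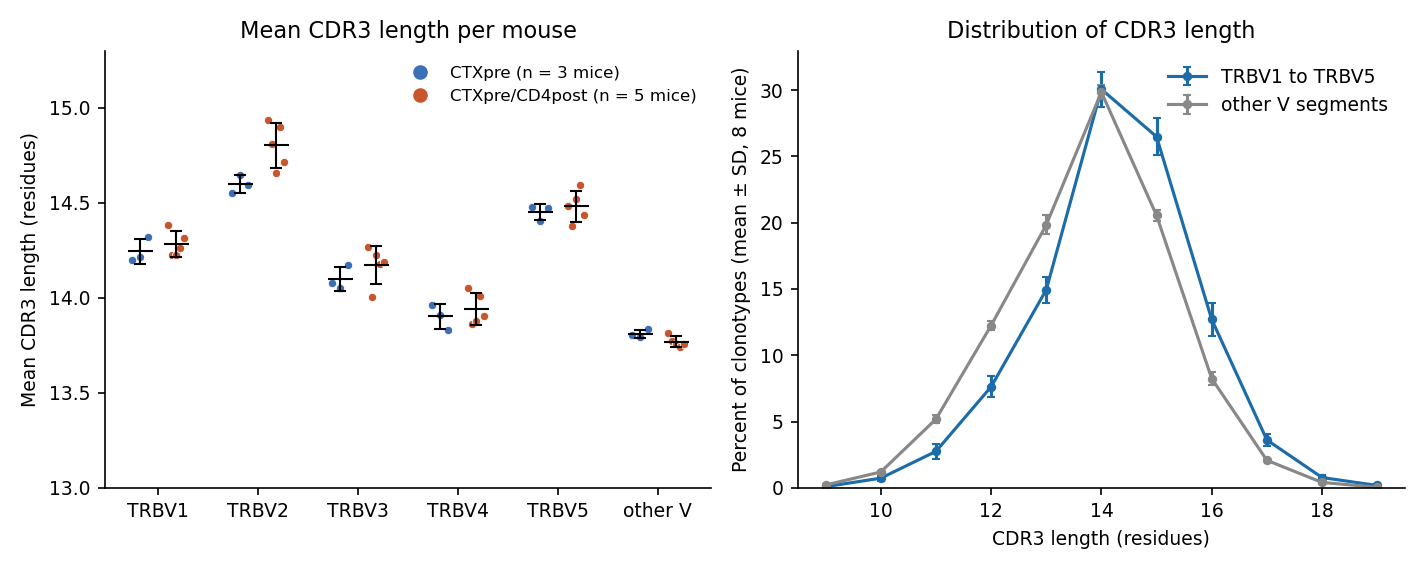
Left, mean CDR3 length in residues (the axis does not start at 0) of each segment and of the other V segments; points are mice, bars mean ± SD of the group. Right, percent of clonotypes at each length, mean ± SD over 8 mice; the curve of TRBV1 to TRBV5 lies to the right of that of the other V segments, with 26.5% against 20.5% at 15 residues.

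The share of the repertoire held by the distal segments was compared between the groups, to ask whether anti-CD4 treatment went with a change in V use. The 5 segments together held 18.50%, 19.42% and 16.46% of the β-chain reads in the CTXpre mice and 20.22%, 18.99%, 20.04%, 23.78% and 21.77% in the CTXpre/CD4post mice. CTXpre/CD4post mouse 2 fell inside the CTXpre range and the 4 other mice of its group lay above it. The means were 18.1% ± 1.51 (SD, n = 3) and 20.96% ± 1.86 (SD, n = 5), and the exact two-sided Mann–Whitney test gave p = 0.0714 (0.143 adjusted over the 6 between-group comparisons), where 3 mice against 5 can reach 0.0357. The Wilson 95% interval of 1 mouse's share had a half-width of 0.727 to 0.834 percentage points. By number of clonotypes the shares were 18.8% ± 1.52 and 20.97% ± 1.32 (exact p = 0.0714; 0.143 adjusted). This difference of 2.18 points was 1.31 points without CTXpre mouse 3. Without clonotypes of 1 read, the distal share of clonotypes was 15.19%, 16.43% and 14.997% in CTXpre and 18.1%, 17.1%, 17.7%, 22.6% and 23.7% in CTXpre/CD4post mice, which do not overlap (exact p = 0.0357 unadjusted, the smallest possible).

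No single segment passed the test. TRBV2, the least used of the 5, held 1.33%, 1.63% and 1.12% of reads in the CTXpre mice and 1.65%, 1.63%, 1.73%, 1.86% and 2.48% in the CTXpre/CD4post mice. The lowest CTXpre/CD4post value equalled the highest CTXpre value. Its log2 difference was 0.37 ± 0.17 (SE; edgeR quasi-likelihood test, adjusted p = 0.267) in reads and 0.31 ± 0.15 (adjusted p = 0.282) in clonotypes. With 1 mouse left out, the difference in reads was 0.57 without CTXpre mouse 2 and between 0.25 and 0.41 otherwise. TRBV4 held 4.36%, 4.86% and 3.81% against 4.71%, 4.78%, 5.73%, 5.72% and 4.62%, with a log2 difference of 0.15 ± 0.12 in reads (0.29 without CTXpre mouse 2 and 0.09 without CTXpre/CD4post mouse 3). TRBV3 held 3.84%, 3.82% and 3.24% against 4.18%, 3.76%, 3.88%, 4.31% and 4.95%, with a log2 difference of 0.12 ± 0.12 (0.21 without CTXpre mouse 2 and 0.06 without CTXpre/CD4post mouse 5). In both segments the groups overlapped. TRBV1 held from 4.12% to 4.97% in CTXpre and from 4.38% to 6.11% in CTXpre/CD4post mice, and its log2 difference was 0.06 ± 0.12. TRBV5 held from 4.14% to 4.58% and from 4.10% to 5.78%, and its log2 difference was 0.05 ± 0.12. The log2 differences of TRBV1 and TRBV5 in reads fell below 0 without CTXpre/CD4post mouse 4 (−0.00105 and −0.00524). Of the 5 members 0 passed in reads, where 0.0% of the 23 V segments tested passed, and 0 passed in clonotypes, where 0.0% of 22 passed. At an unadjusted p under 0.05, edgeR gave 1 member in reads (TRBV2) among 4 segments, and 0 in clonotypes among 3. DESeq2 called 0 segments in either measure, and at an unadjusted p under 0.05 it gave TRBV2 alone in reads and no member among 2 segments in clonotypes. The median log2 difference in reads was 0.12 over the 5 members and −0.04 over the 23 segments tested.

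**Figure D3:**
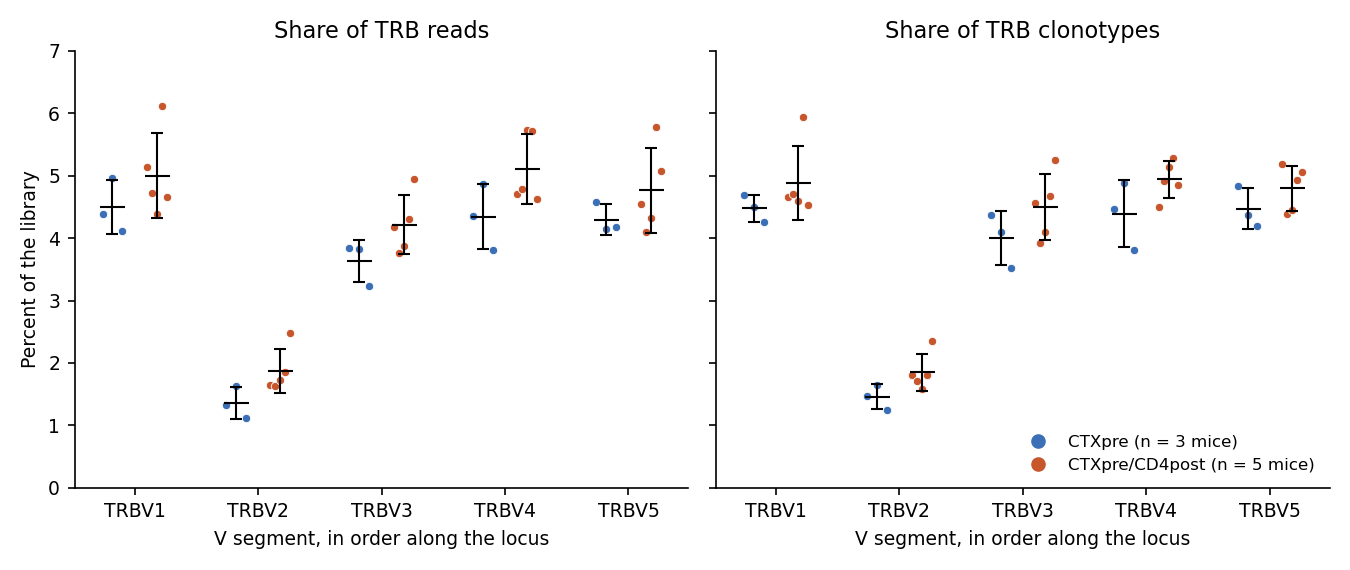
Percent of β-chain reads (left) and clonotypes (right) of each library held by each distal segment; points are mice, bars mean ± SD of the 3 CTXpre and 5 CTXpre/CD4post mice. Groups overlap in each segment, and TRBV2 lies apart from the rest at 1.12% to 2.48% of reads.

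Across the 8 mice, the order of the segments by share of clonotypes was TRBV4 (4.73% ± 0.464, SD), TRBV1 (4.73% ± 0.510), TRBV5 (4.68% ± 0.368), TRBV3 (4.31% ± 0.527) and TRBV2 (1.70% ± 0.319). They ranked from place 8 (TRBV4) to place 18 (TRBV2) among the 24 V segments. The neighbouring pairs tested were set by this order in the same mice, so the sign of each mean difference was fixed beforehand. Their p-values do not allow for that choice. TRBV4, TRBV1 and TRBV5 did not differ beyond the spread of mice (exact two-sided sign-flip p = 1 and p = 0.789 for the neighbouring pairs). TRBV5 exceeded TRBV3 by 0.364 ± 0.270 percentage points in 7 of 8 mice (exact sign-flip p = 0.0156). With 1 mouse left out, this pair had an adjusted p of 0.0625 except without CTXpre/CD4post mouse 5 (0.0312, exact). TRBV3 exceeded TRBV2, its neighbour on the chromosome, by 2.61 ± 0.284 points in 8 of 8 (p = 0.00781; both p = 0.0312 adjusted over the 4 neighbouring pairs, exact test). With 1 mouse left out, TRBV3 against TRBV2 had the same adjusted p-values as TRBV5 against TRBV3. An exact test over 7 mice reaches no p lower than 0.0156 before adjustment. The differences then ranged from 2.57 to 2.67 points for TRBV3 against TRBV2 and from 0.320 to 0.443 for TRBV5 against TRBV3. Among the other V segments, TRBV20 (Pearson r = 0.58) and TRBV23 (r = 0.33) followed the combined distal share of clonotypes most closely over the 8 mice, on the log2 scale. Shares of 1 library add to a fixed total, so these values are a description.

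The J partners of the distal segments were close to those of the rest as a whole. TRBJ2 segments, which lie behind the second D segment, were joined to 70.5% ± 1.28 (SD, n = 8) of the distal and 70.0% ± 1.35 of the other clonotypes, and the distal share was higher in 4 of 8 mice (exact two-sided sign-flip p = 0.359). The sum hid opposite deviations of the members. TRBV4 was joined to TRBJ2 in 74.9% ± 2.48 of its clonotypes, 4.90 ± 2.53 percentage points above the other V segments and higher in 8 of 8 mice. TRBV1 (66.7% ± 1.10) and TRBV2 (64.9% ± 3.04) lay below, with differences of −3.33 ± 1.23 and −5.12 ± 2.20 points and lower values in 8 of 8 mice each. These 3 differences had p = 0.00781 in the exact sign-flip test (0.0130 adjusted over the 5 comparisons). TRBV3, at 73.2% ± 2.94, was higher in 6 of 8 mice and did not pass (p = 0.0547, exact), and TRBV5 was at 69.6% ± 3.46 (p = 0.719, exact). With reads as weights, the TRBV1 difference was −1.41 points and no longer passed (adjusted p = 0.260, exact sign-flip test). TRBJ2 use of the distal clonotypes was 69.9% ± 1.71 in CTXpre (n = 3) and 70.9% ± 0.948 in CTXpre/CD4post mice (n = 5; exact Mann–Whitney p = 0.786).

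The reference set mattered for this measure. Against TRBV19 to TRBV31, the segments nearest to D and J, in which TRBJ2 made up 63.9% ± 1.80, the distal share was higher by 6.67 ± 1.65 points in 8 of 8 mice (exact sign-flip p = 0.00781). The 12 TRBJ segments were also compared singly. TRBJ1-2 was rarer with the distal segments (4.30% ± 0.559 against 5.56% ± 0.249), and TRBJ1-5 (2.75% ± 0.296 against 2.18% ± 0.304) and TRBJ1-6 (3.04% ± 0.327 against 2.53% ± 0.142) were more frequent, each in 8 of 8 mice (exact sign-flip p = 0.00781, 0.0312 adjusted over 12). These 3 are 25.0% of the 12 tested. With reads in place of clonotypes none of the 12 passed, TRBJ1-2 and TRBJ1-5 kept their direction at an adjusted p = 0.0938 (exact), and the TRBJ1-6 difference was −0.06 points. With any 1 mouse left out, the smallest adjusted p the exact test gave was 0.0625 and none passed. TRBJ1-2 made up 2.22% ± 0.933 of TRBV5 and 8.00% ± 2.91 of TRBV2 clonotypes, and TRBJ1-6 1.14% ± 0.674 of TRBV3 and 4.41% ± 1.08 of TRBV1 clonotypes. TRBJ2-7 was the most frequent partner of each of the 5, from 19.6% ± 2.25 in TRBV1 to 23.7% ± 1.94 in TRBV4. As for D, TRBD2 was assigned to 36.7% ± 0.874 of distal and 31.4% ± 0.896 of other clonotypes, and to 45.7% ± 3.16 of those of TRBV4, while 24.0% ± 0.900 and 28.2% ± 0.394 had no D assigned.

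**Figure D4:**
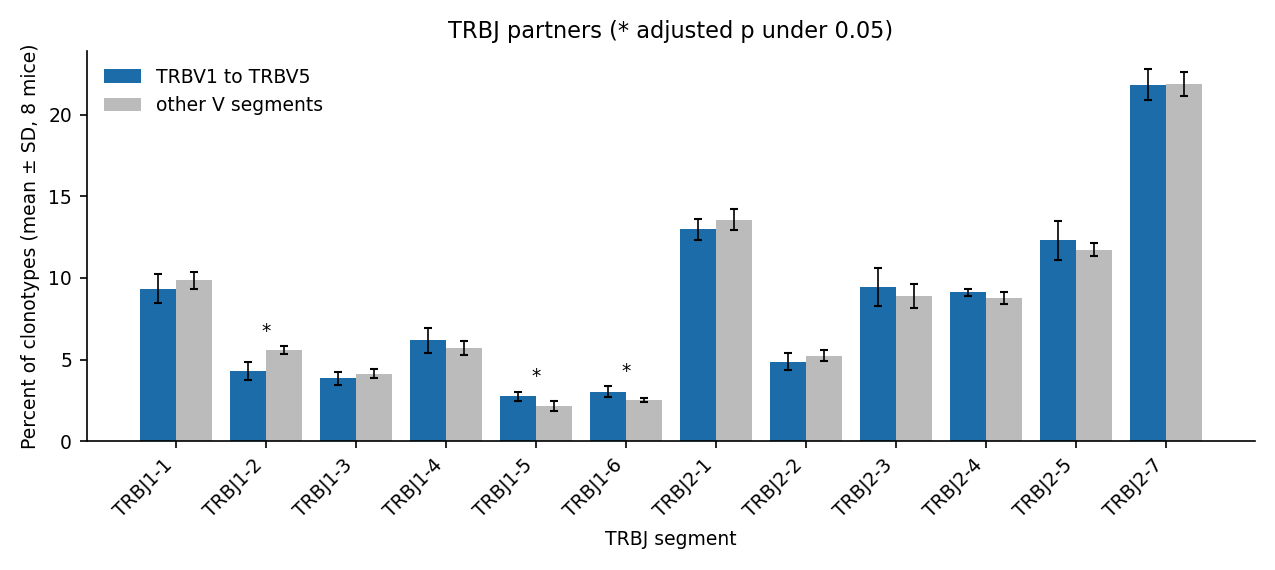
Percent of clonotypes joined to each of 12 TRBJ segments for TRBV1 to TRBV5 (blue) and the other V segments (grey); bars are means over 8 mice, error bars SD, and asterisks mark an adjusted p under 0.05. TRBJ2-7 is the highest bar of either set, and the marked differences are at TRBJ1-2, TRBJ1-5 and TRBJ1-6.

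Expanded clonotypes, here those of 10 or more of the 10000 reads, were few. There were 61 distal ones, 4 in the 3 CTXpre and 57 in the 5 CTXpre/CD4post mice, which is 23.3% of the 262 expanded clonotypes of all V segments. The other V segments had 26 in the CTXpre and 175 in the CTXpre/CD4post mice. By mouse, the distal number was 0, 3 and 1 in CTXpre, where the largest distal clonotype of mouse 1 had 9 reads, and 10, 2, 8, 15 and 22 in CTXpre/CD4post. They held 0%, 4.07% and 0.972% of the distal reads in the CTXpre mice and 9.35%, 1.32%, 9.13%, 11.9% and 17.9% in the CTXpre/CD4post mice. CTXpre/CD4post mouse 2 lay inside the CTXpre range and the 4 other mice of the group lay above it. The means were 1.68% ± 2.12 (SD, n = 3) and 9.90% ± 5.96 (SD, n = 5; exact two-sided Mann–Whitney p = 0.0714, 0.143 adjusted over 6). Counted from 5 reads, the shares were 2.70%, 4.69% and 3.83% against 12.9%, 4.79%, 13.4%, 19.5% and 29.3%, which do not overlap (exact p = 0.0357 unadjusted). Mouse 2 of the CTXpre/CD4post group then lay just above the highest CTXpre mouse. Counted this way, the distal share differed from that of the other V segments of the same mouse by a mean of 0.0911 points (exact sign-flip p = 0.953). Within mice, the expanded share was 6.82% ± 6.30 of distal and 7.46% ± 7.55 of other reads (exact sign-flip p = 0.648), higher for distal in 4 of 8, and the sign of the mean difference turned without CTXpre/CD4post mouse 5 (0.295 points).

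By segment, TRBV4 had 19 expanded clonotypes, TRBV1 13, TRBV5 12, TRBV3 9 and TRBV2 8, or from 0.351% (TRBV3) to 0.794% (TRBV2) of the clonotypes of the segment. The share was 0.506% over the 5 and 0.418% over the other V segments. Of the 61, TRBJ2 segments were joined to 46 (75.4%), and 16 were found in another mouse by CDR3 residues, V and J, 11 of them by nucleotide sequence. Of these 11, 8 were among the 10 expanded distal clonotypes of CTXpre/CD4post mouse 1, and each of the 8 was found elsewhere in mouse 2 alone. Without matches between these mice, a count added after the data were seen, 10 of the 61 were found in another mouse by residues and 3 by nucleotide sequence. There were 20 distal clonotypes of 20 or more reads, 19 of them in CTXpre/CD4post mice. The most abundant of each segment is shown for its junction. Capitals mark the bases between the V end and the J start given in the files, which hold added bases and the D segment where 1 was assigned. The TRBV5 clonotype had no D assigned. In the TRBV1 clonotype the V end given runs past the 17 germline bases.
TRBV1 with TRBJ2-3, CTXpre mouse 2: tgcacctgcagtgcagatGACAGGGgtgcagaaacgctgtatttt
TRBV2 with TRBJ2-5, CTXpre/CD4post mouse 5: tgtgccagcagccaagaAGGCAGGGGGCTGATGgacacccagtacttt
TRBV3 with TRBJ2-1, CTXpre/CD4post mouse 5: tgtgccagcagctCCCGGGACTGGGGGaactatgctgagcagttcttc
TRBV4 with TRBJ2-1, CTXpre/CD4post mouse 3: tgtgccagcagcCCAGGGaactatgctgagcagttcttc
TRBV5 with TRBJ2-7, CTXpre/CD4post mouse 4: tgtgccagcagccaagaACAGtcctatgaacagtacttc

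The TRBV1 clonotype had 58 reads (0.580%, Wilson 95% interval 0.449% to 0.749%) and was the most abundant β-chain clonotype of CTXpre mouse 2. It joins TRBV1, TRBD1 and TRBJ2-3 with no base left unassigned, by a V end that runs past the germline bases. The TRBV5 clonotype (56 reads, 0.560%, 0.432% to 0.726%) was the second most abundant of CTXpre/CD4post mouse 4, and the TRBV4 clonotype (53 reads, 0.530%, 0.405% to 0.693%) the fourth of mouse 3. The residues of the latter were also found in 1 other mouse, from another nucleotide sequence. The TRBV2 clonotype had 38 reads and a CDR3 of 16 residues with 8 unassigned bases, and the TRBV3 clonotype had 25 reads and was also present in CTXpre/CD4post mouse 2 by nucleotide sequence. The TRBV4 sequence keeps 12 germline V bases and so ends before the stop codon, whereas those of TRBV1, TRBV2 and TRBV5 keep all 17. The remaining distal clonotypes among the 12 with the most reads were in CTXpre/CD4post mice and had from 27 to 45 reads. A TRBV1–TRBJ2-7 clonotype of mouse 1 (45 reads) was also found in mouse 2 by nucleotide sequence, and the others (TRBV1 with TRBJ2-7 and TRBJ2-1, TRBV4 with TRBJ2-5 in 2 mice and with TRBJ2-1, and TRBV5 with TRBJ2-1 and TRBJ1-3) were found in 1 mouse each.

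**Figure D5:**
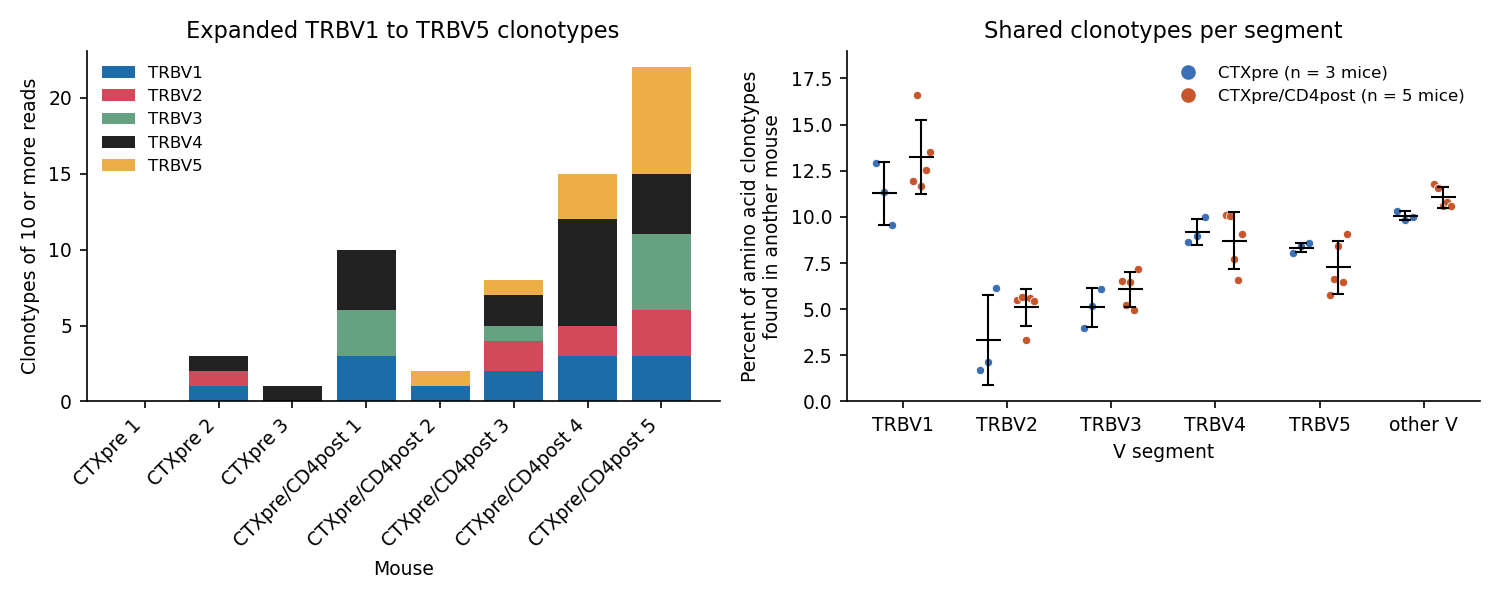
Left, number of distal clonotypes of 10 or more reads in each mouse, stacked by segment; CTXpre mice have 0 to 3 and CTXpre/CD4post mice 2 to 22. Right, percent of a mouse's amino acid clonotypes of each segment found in at least 1 other mouse; points are mice, bars mean ± SD of the group, with TRBV1 highest and TRBV2 lowest of the 5 by mean.

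Clonotypes shared between mice were counted by CDR3 residues, V and J. Of 11392 different distal amino acid clonotypes, 10940 (96.0%) were found in 1 mouse, 374 in 2, 63 in 3 and 15 in 4 or more, of which 9 were TRBV1. With the sequences of CTXpre/CD4post mouse 1 left out of mouse 2, also chosen after seeing the data, 431 in place of 452 were found in 2 or more mice. In 4 or more mice there were then 14 in place of 15. A mean of 8.39% ± 0.623 (SD, n = 8) of the distal clonotypes of a mouse were found in another, against 10.7% ± 0.688 of those of the other V segments. The difference of −2.30 ± 0.741 percentage points was below 0 in 8 of 8 mice (exact two-sided sign-flip p = 0.00781, 0.0195 adjusted over 5), and was −2.25 points with the sequences of CTXpre/CD4post mouse 1 left out of mouse 2. The direction turned with the reference set: against TRBV19 to TRBV31, of whose clonotypes 6.34% ± 0.570 were shared, the distal share was higher by 2.05 ± 0.882 points in 8 of 8 mice (exact sign-flip p = 0.00781). Against the 7 other V segments with 17 germline bases it was lower by a mean difference of −1.24 ± 1.17 points, in 7 of 8 mice (exact sign-flip p = 0.0312). The members differed widely. TRBV1 clonotypes were shared in 12.5% ± 2.04 (SD, n = 8), those of TRBV4 in 8.90% ± 1.25, TRBV5 in 7.67% ± 1.21, TRBV3 in 5.70% ± 1.04 and TRBV2 in 4.43% ± 1.76. The range of TRBV1 (9.55% to 16.6%) lay above those of TRBV2 (1.69% to 6.12%) and TRBV3 (4.00% to 7.17%). TRBV2 had 1007 clonotypes in all and the other members from 2564 to 2841, and the part of this number in the shares was not tested.

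Between groups, 8.14% ± 0.269 of the distal clonotypes were shared in CTXpre (n = 3) and 8.55% ± 0.751 in CTXpre/CD4post mice (n = 5; exact Mann–Whitney p = 0.571). The sign of this difference turned without CTXpre/CD4post mouse 2 (−0.318 points) or mouse 5 (−0.101), and with the sequences of mouse 1 left out of mouse 2 (−0.17). By nucleotide sequence the shares were 2.03% ± 0.218 and 2.94% ± 0.751 and did not overlap (exact p = 0.0357, unadjusted), but with the sequences of CTXpre/CD4post mouse 1 left out of mouse 2 they were 2.03% and 2.26% ± 0.315 (exact p = 0.25). Shared distal clonotypes had a mean of 1.69 unassigned bases and 33.7% had none, against 3.08 bases and 13.1% in those found in 1 mouse. Their mean lengths were 13.8 and 14.3 residues.

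The distal clonotypes found in 6 and in 5 mice, 1 each, were TRBV1, and 13 were tied at 4 mice, of which 7 were TRBV1, 3 TRBV5, 2 TRBV4 and 1 TRBV3. The widest spread was that of a TRBV1–TRBJ2-7 CDR3 of 12 residues, found in 6 mice (2 CTXpre and 4 CTXpre/CD4post) with 9 reads in all and at most 3 in a mouse. It was encoded by 4 nucleotide sequences, shown because they encode the same residues. Capitals mark the 3 positions at which the sequences differ.
Form 1: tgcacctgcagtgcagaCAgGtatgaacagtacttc
Form 2: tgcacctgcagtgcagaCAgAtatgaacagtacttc
Form 3: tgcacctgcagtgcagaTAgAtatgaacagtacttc
Form 4: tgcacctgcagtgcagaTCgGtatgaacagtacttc

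All 4 keep the 17 germline bases of TRBV1, and differ in the bases that follow them. Form 1 was in 3 mice, CTXpre mouse 3 and CTXpre/CD4post mice 2 and 4, and form 2 in 2 mice, CTXpre/CD4post mice 2 and 3. Forms 3 and 4 were in 1 mouse each. A TRBV1–TRBJ1-1 clonotype was found in 5 mice with 8 reads in 6 nucleotide forms. Of the 13 tied at 4 mice, the 3 with the most reads joined TRBV1 to TRBJ2-7 (23 reads, 15 of them in 1 mouse), to TRBJ1-4 (23 reads) and to TRBJ1-2 (9 reads in 7 forms), and the 6 of other segments had 5 or 6 reads each. The clonotypes in 6 and 5 mice had at most 3 and 2 reads in a mouse. A count of 0 of 10000 reads allows a share of up to 0.03%, so absence from the remaining libraries was not detectable at this depth.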

How the data were processed

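The authors amplified TCR chains from RNA by nested PCR (SMARTer kit), sequenced them on a MiSeq, trimmed adapters, aligned the reads in MiXCR, extracted clonotypes (VDJtools) and drew 10000 reads per library. The deposited counts are reads per clonotype, and the deposited fraction is the count divided by 10000, checked on every file and not used further. The α-chain files were not used here. The labels name mm10; segment names are those of the aligner's library, whose version is not given in the sources used here, and were matched to RefSeq genes of GRCm38.p6 by name.

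Values were computed per mouse with Python 3.11.15, pandas 2.3.3 and numpy 2.4.6. Reads and clonotypes per V segment (at least 10 in at least 3 mice) were compared between groups in edgeR 4.0.16 (TMM, quasi-likelihood test, Benjamini-Hochberg over all V segments, standard errors from the F statistic), with DESeq2 1.42.0 (R 4.3.3) as an alternative. Single values were compared by exact two-sided Mann–Whitney tests, and contrasts within mice by exact sign-flip tests over 8 mice, with a threshold of 0.05. The functions were tested on simulated data. The members, measures and named clonotypes were chosen with earlier results of these data known. Named clonotypes were the most abundant of each segment, those of 20 or more reads (at most 12) and the 5 found in the most mice, with ties broken by total reads. Nothing in the labels says more of the replicates than that they are separate mice of a group.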

Additional observations from a re-analysis of the deposited data

Results flagged for a closer look

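Among 21 results tested for an outlying mouse in the CTXpre/CD4post group, 2 had one by Dixon's test at the 95% level, which chance alone gives in about 1 of 20. TRBV1 made up 5.94% of the clonotypes of mouse 4, against 4.71% in the next of the 5 mice. TRBV2 held 2.48% of the reads of mouse 5, against 1.86% in the next.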

How the results depend on the processing

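Most results kept their direction and side of the threshold. For single comparisons over mice, the side was judged here on unadjusted exact p-values. For V segments, TRBJ segments and neighbouring pairs it was judged on p-values adjusted over the set tested together. Without clonotypes of 1 read, the group difference in the distal share of clonotypes was 4.29 percentage points and passed, that in TRBJ2 use was −0.65, TRBJ2 use against the other V segments was −1.82, and unassigned bases differed by −0.0474 (exact p = 0.453, against 0.0391 over all clonotypes, which did not pass after adjustment). Expanded clonotypes counted from 5 reads differed by 12.2 points between groups, which passed, and by 0.0911 within mice. Sharing by nucleotide sequence differed by 0.917 points between groups and passed, and with the sequences of CTXpre/CD4post mouse 1 left out of mouse 2, amino acid sharing differed by −0.17. Against TRBV19 to TRBV31, TRBJ2 use differed by 6.67 and passed, and sharing by 2.05. Weighted by reads, 0 of the 12 TRBJ segments passed after adjustment, TRBJ1-3 differed by 0.268 and TRBJ1-6 by −0.0631. The cause of these changes was not tested.

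With each mouse left out in turn, TRBV1 reads ranged from −0.00105 to 0.194 and TRBV5 reads from −0.00524 to 0.109 (log2). In points, sharing between groups ranged from −0.318 to 0.763, expanded share within mice from −1.25 to 0.295, TRBJ2 use of TRBV5 from −1.08 to 0.201, and TRBJ2-7 from −0.161 to 0.262. Unassigned bases ranged from −0.0549 to −0.0315. TRBV4 minus TRBV1 ranged from −0.0782 to 0.0948 and TRBV1 minus TRBV5 from −0.0788 to 0.142. From 0 to 0 TRBJ segments passed, since 7 mice reach an exact p no lower than 0.0156 before adjustment over 12, and from 0 to 2 neighbouring pairs passed (2 without CTXpre/CD4post mouse 5). Group comparisons of single values could not pass with a mouse left out, so their staying above the threshold there carries no information. The smallest exact Mann–Whitney p is then 0.0571 (3 against 4 mice) or 0.0952 (2 against 5).

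The groups share replicate numbers 1 to 3, but these are different mice and their deviations did not go together (correlations of −0.245, 0.147 and 0.0230). With a replicate block, 0 of the 5 distal segments passed in reads or clonotypes, 1 of the 23 V segments passed in reads and 0 of 22 in clonotypes, and TRBV5 reads were at −0.0542 (log2). Counts of 3 or fewer reads limit every statement on single clonotypes.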
